A study of Mus musculus with 2 samples.

Results

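Open chromatin sites at small RNA genes were described in the frontal cortex of young mice. A site was a DNase-seq peak, a short stretch of genome cut often by DNase I because it was not packed around nucleosomes, whose centre lay within 500 bp of an autosomal gene of type miRNA, snoRNA, snRNA, scaRNA, misc_RNA or rRNA and over 1 kb from every transcript start of any other gene type. The rule used positions only and no measured value. It found 271 peaks among 101790 autosomal peaks of replicate 1 (104654 peaks in all) and 203 among 79516 of replicate 2 (81654 in all). By the type of the nearest small RNA gene, replicate 1 and replicate 2 held 117 and 87 peaks at miRNA genes, 63 and 47 at snRNA genes, 53 and 35 at snoRNA genes, 27 and 28 at misc_RNA genes, 9 and 5 at rRNA genes, and 2 and 1 at scaRNA genes. Merged over both libraries they made 299 sites, of which 165 had a peak in both, 102 in replicate 1 only and 32 in replicate 2 only. Around the limits of the rule, the farthest member centres lay 495 and 491 bp from their gene and the nearest peaks outside lay at 501 bp in both libraries. The members nearest to another start lay 1014 and 1006 bp from it, and the farthest peaks left out for that reason lay at 986 and 956 bp.

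Both libraries came from frontal cortex of female B6CASTF1/J mice aged 10 days, the first-generation cross of the inbred strains C57BL/6J and CAST/EiJ. They formed 1 group, labelled as biological replicates 1 and 2, and carried the same donor label, so whether they came from separate animals is not known. The labels add the mark 3x and do not explain it. There was no treatment, second tissue or second strain, so every comparison below is between kinds of sites within a library, given for each library, and no test across samples could be made. Reads of the CAST/EiJ chromosomes were placed on a C57BL/6J reference, and the effect of that on the peaks was not tested.

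Small RNA genes are transcribed by different machinery. Most spliceosomal snRNA genes (U1, U2, U4, U5, U11 and U12) and the U3 and U8 snoRNA genes are transcribed by RNA polymerase II, and U6 snRNA, 7SK, 7SL, Y, vault and tRNA genes by RNA polymerase III. Promoters of snRNA genes have a proximal element close to the start and a distal element farther upstream, where the factor Oct-1 (Pou2f1) can bind the octamer ATGCAAAT beside a site for ZNF143. 7SL and vault genes and tRNA genes also carry promoter elements inside the transcribed region. Most snoRNAs and many miRNAs lie inside longer host transcripts and have no promoter of their own, and some miRNA genes of neurons, such as Mir132 and Mir212, are switched on by the cyclic AMP response element (CRE), which CREB binds. The mouse genome also holds many copies of snRNA, 5S rRNA and snoRNA genes that came from retrotransposition and are not known to be transcribed.

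The sequences that carry the main patterns come from the C57BL/6J reference (RefSeq, build GRCm38, the same as mm10) and are written 5′ to 3′ in the direction of the gene. The first set shows the octamer, in capitals, with 16 bases on either side, at each snRNA site that had a peak in both libraries and an exact match on either strand. They are ordered by the signal of replicate 1, so that the shared flank of the U2 genes (a run rich in G just before the octamer) can be compared.
Gm23296 (U6): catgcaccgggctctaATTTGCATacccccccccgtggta
Gm25313 (U5): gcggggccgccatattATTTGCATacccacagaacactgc
Gm24407 (U4): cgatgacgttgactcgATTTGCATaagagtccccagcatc
Gm25939 (U2): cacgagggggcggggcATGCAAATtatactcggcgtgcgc
Gm24859 (U6): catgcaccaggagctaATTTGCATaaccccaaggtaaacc
Gm24950 (U2): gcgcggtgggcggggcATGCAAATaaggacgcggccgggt
Rnu2-10 (U2): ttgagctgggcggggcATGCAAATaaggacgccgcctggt
Rnu5g (U5): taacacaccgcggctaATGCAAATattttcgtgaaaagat
Gm25360 (U2): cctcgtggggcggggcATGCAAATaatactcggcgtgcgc
Gm23444 (U2): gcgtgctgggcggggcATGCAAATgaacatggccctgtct
Gm23971 (U2): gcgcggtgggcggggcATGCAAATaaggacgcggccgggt
Gm26316 (U2): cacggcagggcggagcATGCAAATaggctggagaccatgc
Gm22973 (U2): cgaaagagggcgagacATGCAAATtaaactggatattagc

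The second set shows 3 whole peaks of replicate 1 in which a motif other than the octamer lay beside a small RNA gene, with the motif in capitals. It is the CRE (TGACGTCA) in the peaks at Mir132 (chr11:75173521-75173820) and Mir9-3 (chr7:79504781-79505000), and the B box of tRNA genes (GGTTCGANT) at n-TStga1 (chr13:23518101-23518300). The CRE was also in the peaks at the 7SL gene Rn7s2 and the rRNA record Gm24931, which are not printed.
Mir132: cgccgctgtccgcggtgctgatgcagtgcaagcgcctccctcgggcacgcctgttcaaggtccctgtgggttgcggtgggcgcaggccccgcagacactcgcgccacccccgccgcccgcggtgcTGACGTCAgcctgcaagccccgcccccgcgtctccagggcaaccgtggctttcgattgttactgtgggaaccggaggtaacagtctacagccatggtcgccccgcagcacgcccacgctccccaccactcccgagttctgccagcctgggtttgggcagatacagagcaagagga
Mir9-3: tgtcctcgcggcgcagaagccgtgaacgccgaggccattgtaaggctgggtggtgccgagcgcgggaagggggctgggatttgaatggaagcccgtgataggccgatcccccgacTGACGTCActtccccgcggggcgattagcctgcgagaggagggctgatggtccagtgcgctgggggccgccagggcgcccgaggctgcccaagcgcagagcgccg
n-TStga1: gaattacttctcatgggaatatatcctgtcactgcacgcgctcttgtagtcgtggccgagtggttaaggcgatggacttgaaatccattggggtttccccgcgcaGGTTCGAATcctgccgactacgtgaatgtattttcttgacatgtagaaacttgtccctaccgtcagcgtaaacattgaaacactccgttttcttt

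The third set shows mature miRNAs (RefSeq, GRCm38) of miRNA genes at or within 500 bp of a site that are named below, with the seed (bases 2 to 8), which pairs with target mRNAs, in capitals. The first and second share a seed, and so do 4 of the 5 miRNAs of the miR-344 family.
miR-132-3p: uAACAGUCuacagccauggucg
miR-212-3p: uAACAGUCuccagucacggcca
miR-9-5p: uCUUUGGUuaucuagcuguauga
miR-9-3p: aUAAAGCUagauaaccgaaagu
miR-129-5p: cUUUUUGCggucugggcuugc
miR-128-3p: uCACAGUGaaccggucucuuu
miR-210-3p: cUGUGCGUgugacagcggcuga
miR-344-5p: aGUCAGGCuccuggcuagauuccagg
miR-344b-5p: aGUCAGGCuccuggcuaaaguuc
miR-344c-5p: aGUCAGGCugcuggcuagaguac
miR-344d-1-5p: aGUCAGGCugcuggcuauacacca
miR-344f-5p: aGUCAGUCuccuggcuggaguc

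As a check of the tissue, 4 genes of the forebrain cortex (Emx1, Tbr1, Neurod6 and Neurod2) had a peak within 1 kb of a start in both libraries, at 0.833 to 1.46 in replicate 1 and 1.23 to 2.79 in replicate 2. Of 5 genes of other organs (Alb, Myh6, Ins2, Cdx2 and Hoxa9), 1 had such a peak in replicate 1, Ins2 at 0.380, and none in replicate 2. Signal is the value the authors deposited for each peak. No source used here states its scale, and the read depth behind it is unknown, so values are compared within a library or after centring. Over all autosomal peaks the median signal was 0.609 in replicate 1 and 0.891 in replicate 2, and 64.8% and 83.0% overlapped a peak of the other library. At least 1 footprint, a short protected stretch inside open chromatin, was held by 82.5% and 72.3%, and 56.7% and 56.8% were also in the shorter of the 2 peak lists the authors deposited for each library.

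Sites at small RNA genes as a whole were close to that background of all autosomal peaks, which includes peaks at the starts of other genes. The median signal at snRNA genes was above that of the other types. Over all types, 168 of 271 peaks (62.0%) of replicate 1 and 171 of 203 (84.2%) of replicate 2 overlapped a peak of the other library, near the background shares just given. A footprint was held by 226 (83.4%) and 154 (75.9%), and 162 (59.8%) and 116 (57.1%) were also in the shorter list. The median signal over all types was 0.641 and 0.891, the background value in replicate 2. It was above the 0.510 and 0.733 of other distal peaks, those over 1 kb from every other start and farther than 500 bp from a small RNA gene. Of other distal peaks 59.4% and 79.5% were shared, 81.5% and 69.8% held a footprint, and 48.3% and 47.6% were in the shorter list. Sites at small RNA genes were above other distal peaks on each of these measures in both libraries. Another 343 and 309 peaks near small RNA genes lay within 1 kb of another start and were left out by the rule, with medians of 1.64 and 2.13.

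By type, the median signal at snRNA genes was 0.969 in replicate 1 and 1.48 in replicate 2, 0.92 and 1.01 above other distal peaks on the log2 scale. These medians were near those of peaks at the starts of other genes (1.03 and 1.44). miRNA sites had medians of 0.615 and 0.857, misc_RNA sites 0.672 and 0.891, and rRNA sites 0.573 and 0.947. snoRNA sites had 0.495 and 0.812, below other distal peaks in replicate 1 and above them in replicate 2. Within each type the values spread widely, the middle 50% of snRNA peaks spanning 0.458 to 1.80 in replicate 1 and 0.727 to 2.76 in replicate 2, and all types overlapped. In the plot of signal by type, snRNA was the only type whose median line reached the dotted line of other starts in a library (replicate 2).

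**Figure D1:**
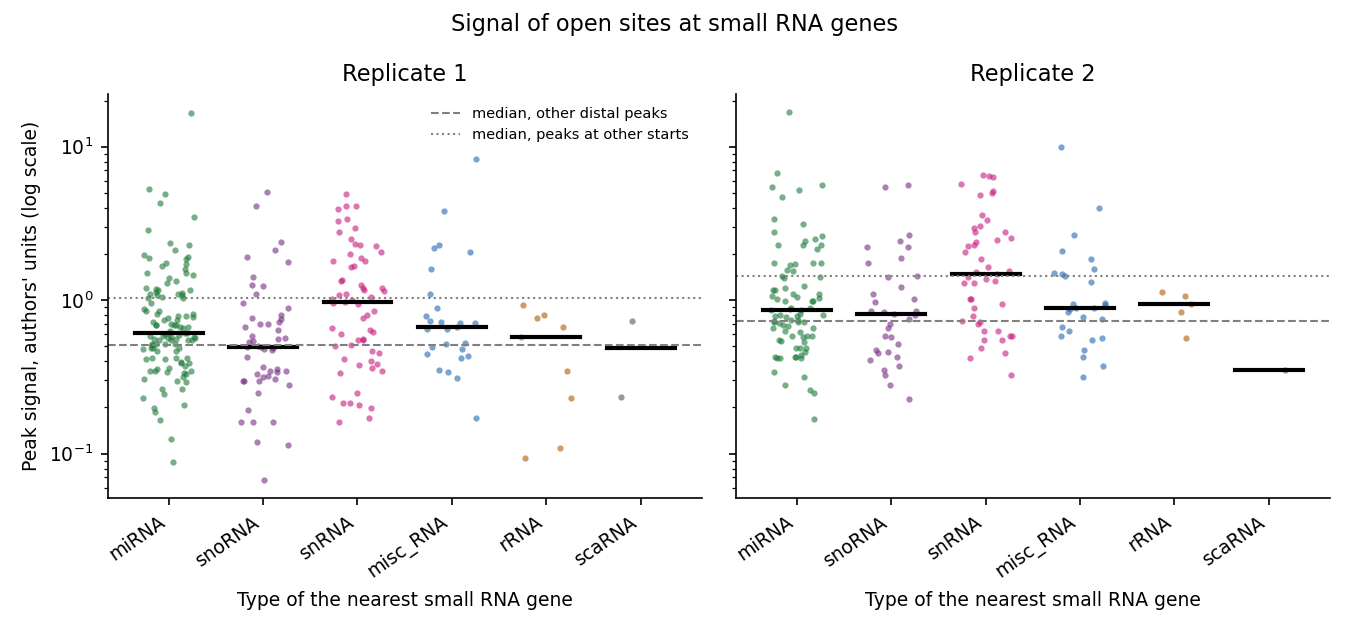
Signal of every member peak (points, authors' units, log scale) by type of the nearest small RNA gene, with black bars at the medians and gray lines at the medians of other distal peaks and of peaks at other starts, for replicate 1 (left) and replicate 2 (right). The snRNA medians of 0.969 and 1.48 are near the dotted lines at 1.03 and 1.44, and the highest point is a miRNA record at 16.6 and 16.9.

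Sharing followed the same order only in part. Of the snRNA peaks, 43 of 63 (68.3%) in replicate 1 and 43 of 47 (91.5%) in replicate 2 overlapped a peak of the other library. For misc_RNA the shares were 74.1% and 85.7%, for snoRNA 60.4% and 88.6%, and for miRNA 57.3% and 77.0%, the last below the background in both libraries. Footprints were held by 84.1% and 87.2% of snRNA peaks by 82.1% and 69.0% of miRNA peaks, by 92.6% and 78.6% of misc_RNA peaks, by 81.1% and 74.3% of snoRNA peaks and by 77.8% and 100% of the 9 and 5 rRNA peaks. Both measures moved with signal. Among sites in the highest 25% of signals over all autosomal peaks of replicate 1, 64 of 65 small RNA sites (98.5%) were shared against 99.1% of other distal peaks, and in the lowest 25% 15 of 65 (23.1%) against 27.4%. In replicate 2 all 52 of the highest were shared against 99.9%, and 26 of 43 of the lowest (60.5%) against 55.4%. A footprint was held by all 65 and 52 of the highest, against 99.7% and 99.6% of other distal peaks. Of the lowest, 34 of 65 (52.3%) held one in replicate 1 against 56.9%, and 15 of 43 (34.9%) in replicate 2 against 33.5%. In the lowest 25% the small RNA sites were thus below other distal peaks in replicate 1 and above them in replicate 2 on both measures. In the 25% above the lowest they were shared less in both libraries (41.5% against 54.6%, and 75.9% against 81.5%). Footprints there differed in direction (90.8% against 86.8%, and 68.5% against 73.8%). In the 25% below the highest, footprints were fewer in both (89.5% against 95.9%, and 92.6% against 95.2%). Sharing there was near equal (81.6% against 82.3%, and 96.3% against 96.7%).

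Sites at snRNA genes were more often upstream of the gene than inside or downstream of it. The snRNAs are the RNA parts of the spliceosome, which removes introns from pre-mRNA, and 1292 autosomal gene records carry this type. Of these, 49 had a site in replicate 1, 40 in replicate 2 and 38 in both. Upstream of the 5′ end were 36 of 63 peak centres in replicate 1 and 26 of 47 in replicate 2, with a median distance of -250 and -270 bp (the rule allows at most 500 bp). In replicate 1 7 centres lay inside the gene and 20 downstream, and in replicate 2 7 and 14. The middle 50% of these upstream centres spanned -310 to -225 bp and -302 to -245 bp. Upstream shares were 57.1% and 55.3% at snRNA genes, 51.9% and 57.1% at misc_RNA genes and 55.6% and 60% at rRNA genes. They were 45.3% and 48.3% at miRNA genes and 28.3% and 31.4% at snoRNA genes. The upstream share alone was thus not particular to snRNA. In the layout of peaks and footprints along snRNA genes, 56.8% of positions in both libraries between -280 and -261 bp lay in a peak, against 12.6% and 15.4% between -40 and -21 bp just before the start. Footprint cover was near its highest between -240 and -221 bp, where 21.3% and 19.0% of positions lay in one.

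**Figure D2:**
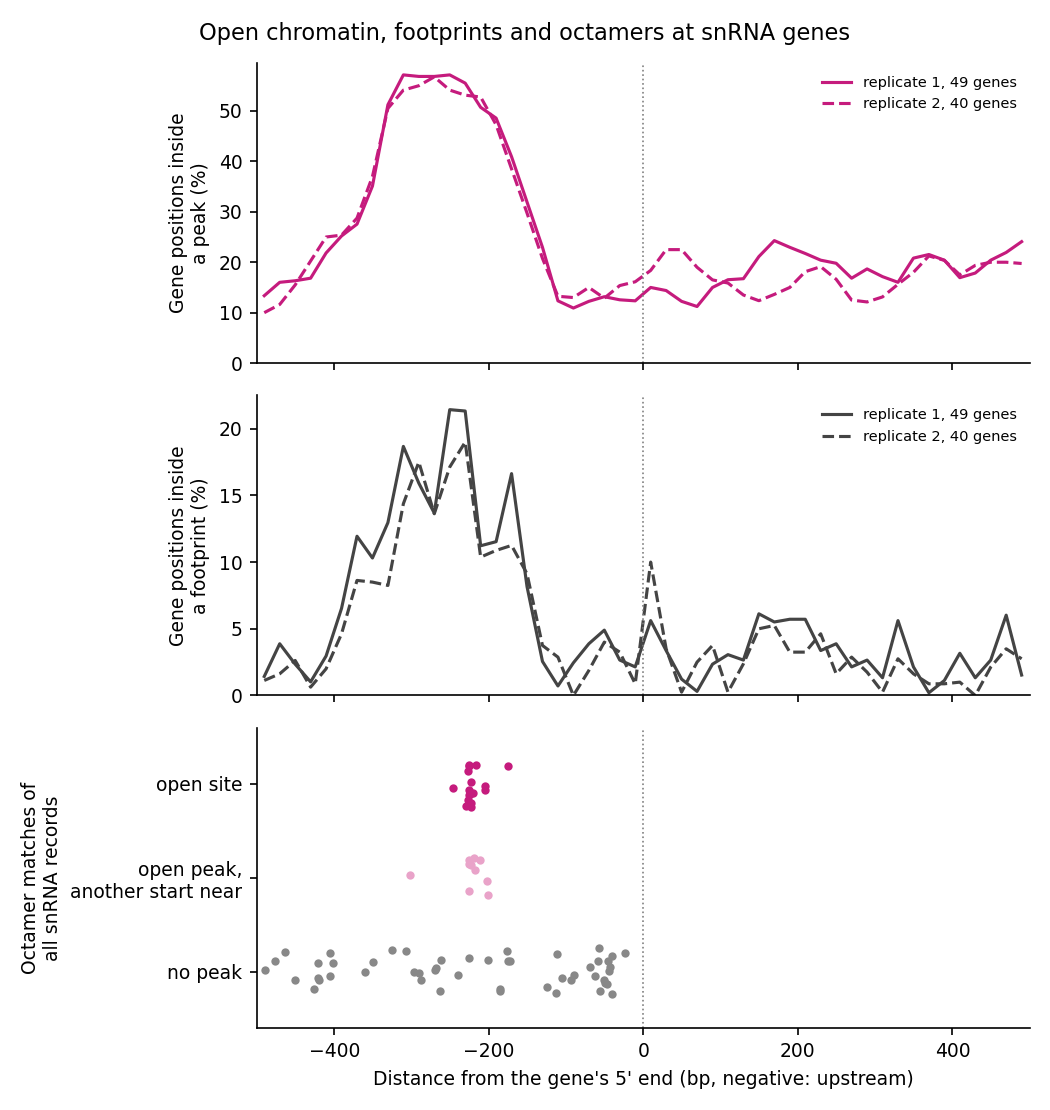
Share of positions inside a peak (top) and inside a footprint (middle) in bins of 20 bp along the snRNA genes with a site (49 genes in replicate 1, solid; 40 in replicate 2, dashed), and the octamer matches within 500 bp upstream of all snRNA gene records (bottom, 1 point per match; vertical scatter has no meaning). Peaks and footprints are highest 200 to 350 bp upstream, and the octamers of genes with a site sit in a narrow band near -224 bp while those of genes with no peak are spread over the window.

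The octamer was found in 14 of 63 snRNA peaks of replicate 1 (22.2%) and 14 of 47 of replicate 2 (29.8%), on either strand. Over all autosomal peaks the shares were 1.09% and 1.14%, and over other distal peaks of replicate 1 1.18%. The core of the ZNF143 site, searched as ACTACAANT on either strand, was found in 0 of 63 and 0 of 47 snRNA peaks and in 0.635% and 0.722% of all autosomal peaks, which says only that these letters are not in these snRNA peaks. All 14 peaks of each library with an octamer lay upstream of their gene. Their median signal was 1.90 in replicate 1 and 2.52 in replicate 2, against 0.549 and 1.39 for the 22 and 12 upstream peaks without one and 0.849 and 1.29 for peaks inside or downstream of the gene. The ranges overlapped, since the highest upstream peak of each library, at 4.94 and 6.59, had no exact octamer. For the 13 snRNA matches printed above and the one at the U8 gene Snord118, the centre of the octamer lay between -244 and -176 bp from the gene start, with a median of -225.5 bp. The motif read ATGCAAAT in the direction of the gene at 10 of these 14 genes and in reverse at 4, and a footprint covered at least 50% of it in replicate 1 at 4, in replicate 2 at 6 and in either at 7. Of the octamer matches in all autosomal peaks, 10.5% and 8.64% were covered in this way. These shares were not matched for signal.

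Most snRNA gene records had no octamer, and this held for those with a site too. Of the 1292 records, 76 had an exact match within 500 bp upstream, and 17 of these (22.4%) had a site in at least 1 library. Counting peaks near another start too, 26 (34.2%) were open. Of the 1216 records without a match, 34 (2.80%) had a site, and these made up 34 of the 51 records with a site. The position of the octamer differed between the groups, with overlap. Among records with a site, 16 of 17 matches had their centre 180 to 280 bp upstream, with a median of -224 bp, and among records whose only peak was at another start 9 of 10 did. Among records with no peak 9 of 50 matches did. That window was chosen after the positions were seen. Of the 17 records with a match and a site, 8 were U2 records, which share flanking sequence and so are not independent cases.

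Every U2 site was at a record with an octamer upstream. U2 snRNA pairs with the branch point of the intron. Of 47 U2 records, 13 had an octamer upstream, of which 8 had a site and 11 a peak of any kind, and none of the 34 without an octamer had a site. Rnu2-10, the only U2 site gene with an Rnu symbol, was at 2.01 and 3.04 (chr11:101657961-101658200). Gm25939 was at 2.51 and 2.76, Gm24950 at 2.24 and 2.48, Gm25360 at 1.80 and 1.85, and Gm23444 at 1.68 and 2.29. Gm23971 was at 1.17 and 1.64, Gm26316 at 0.969 and 0.891, and Gm22973 was lowest at 0.385 and 0.451. The lowest 3 were the same in both libraries, and the order of the upper 5 differed. Several U2 copies on chromosome 11 are near-identical, and over 50% of the 31-base words of the peaks at Gm24950 (55.3%) and Gm23971 (66.5%) occur more than once in the genome, so the reads of these peaks are not certain to belong to 1 copy.

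The 2 snRNA sites with the highest mean signal were at U6 genes. As a class U6 was not the strongest, with medians of 1.09 and 1.48 against 2.06 and 3.27 for the 3 and 2 peaks at U4 genes. U6 snRNA forms the catalytic centre of the spliceosome with U2. Of 761 U6 records only 15 and 12 had a site in the 2 libraries. Gm25064 (chr9:63132861-63133080) had 4.94 and 6.32 with its centre at -312 bp, at the 95.9th percentile of all autosomal peaks in both libraries. Gm24204 (chr15:80088761-80088900), in an intron of the ribosomal protein gene Rpl3, had 4.08 and 6.59 at -278 bp, and Gm23296 (chr12:52604741-52604960) had 4.12 and 4.98 at -250 bp. Gm23856 followed with 2.96 and 4.86 at -347 bp. None of these peaks had words found elsewhere in the genome (0% of 31-base words). Of these 4, only Gm23296 had an exact octamer, at -224 bp under a footprint in both libraries. Gm24859, a neighbouring U6 gene on the opposite strand, had 2.31 and 2.56 at -277 bp and an octamer at -220 bp under a footprint in replicate 2 only.

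Most U5 and U4 peaks were upstream as well, 6 of 7 and 5 of 5 at U5 genes and 2 of 3 and 2 of 2 at U4 genes. U5 snRNA holds the exons together during splicing, and 6 of its 11 records had a site in at least 1 library. Gm25313 (chr9:65196841-65197060, in an intron of Parp16) had 3.95 and 6.44 at -274 bp, and Rnu5g, also in Parp16, had 1.80 and 2.76 at -250 bp. Gm25099, on chromosome 4, had 2.28 and 2.39 at -271 bp and no exact octamer. U4 snRNA, which is paired with U6 before splicing starts, had 3 of 37 records with a site, led by Gm24407 on chromosome 5 with 2.77 and 3.60 at -293 bp. The next U4 gene, Gm24265, had 2.06 and 2.94 at -48 bp. The named genes Rnu12, Rnu11 and Rnu7 had open peaks only within 1 kb of another start, at 6.69 and 9.10, 2.04 and 2.62, and 3.82 and 4.70, and so were not members.

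The strongest U1 sites were centred inside the gene. The upstream share of U1 peaks was near that of all snRNA peaks in replicate 1 (53.8% against 57.1%). It was below it in replicate 2 (30% against 55.3%). U1 snRNA pairs with the 5′ splice site, and 11 of 167 records had a site. In replicate 1, 7 of 13 U1 peaks were upstream with a median signal of 0.557, and the other 6 had a median of 1.57. In replicate 2, 3 of 10 were upstream with a median of 0.632, and the rest had a median of 1.29. The strongest, at Gm22513 (chr12:54696781-54697040) with 3.26 and 5.68 and at Rnu1a1 (chr11:87422881-87423120) with 3.40 and 5.12, were centred 139 and 134 bp after the gene start, inside the gene. Repeated 31-base words made up 44.3% and 58.1% of these peaks. Rnu1a1 had a second peak at -236 bp, at 1.01 in replicate 1 only, with no repeated words. The U1 gene Gm22068, also in Tex14, had 1.15 at -235 bp in replicate 1 and no peak in replicate 2. It was among the 2 strongest sites found only in replicate 1. The U1 genes Gm22513, Gm22634, Gm23804, Gm24305 and Gm22317 lie in 1 cluster on chromosome 12, and 75.2 to 100% of the words in the peaks at the last 4 were repeated.

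**Figure D3:**
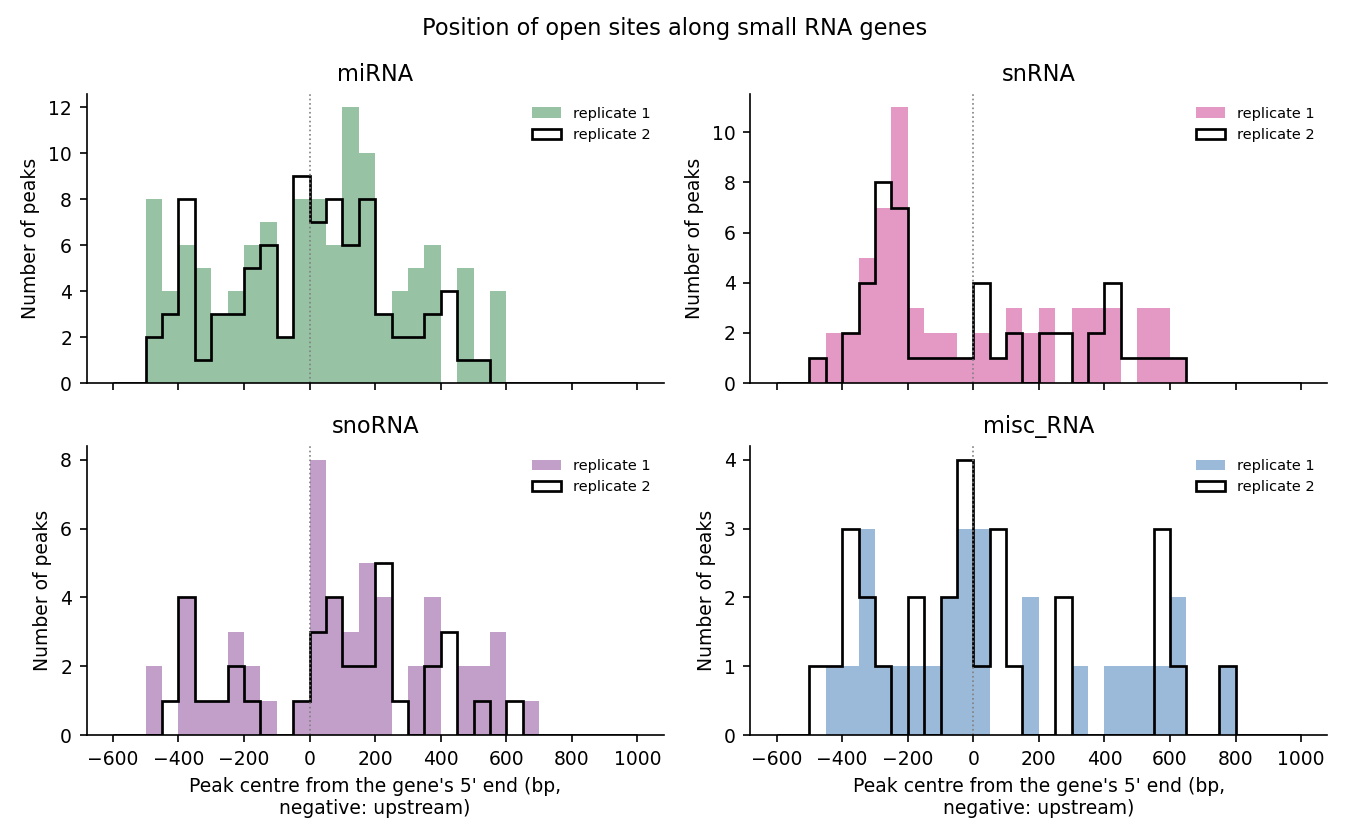
Number of member peaks by the distance of their centre from the 5′ end of the nearest gene in bins of 50 bp (negative values are upstream), for replicate 1 (filled) and replicate 2 (outline). snRNA peaks pile up 200 to 350 bp upstream in both libraries, while miRNA and misc_RNA peaks are spread over the window and most snoRNA peaks are inside or downstream of the gene.

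A few sites at snoRNA genes were well above the median of their type. The snoRNAs guide chemical changes of ribosomal RNA (box C/D for methylation, box H/ACA for pseudouridine) or help to cut it, as U3 and U8 do. The strongest, at Snord104 (chr11:106500721-106500960), had 5.08 and 5.44 at -152 bp, with no repeated words. The U3 genes inside Tex14 on chromosome 11 had upstream peaks at Rnu3b3 of 4.11 and 5.59 at -276 bp, at Rnu3b1 of 2.12 and 2.65 at -356 bp, at Rnu3b4 of 1.90 and 2.45 at -325 bp and at Rnu3b2 of 1.41 and 1.42. Of the words of these 4 peaks 76.0%, 57.2%, 44.1% and 31.7% were repeated, so their reads are not certain to belong to 1 copy. Of the 10 peaks at U3 genes in each library, 4 were upstream and 6 downstream. Snord118, the U8 gene, had 2.41 and 2.22 at -236 bp, with its octamer inside an exon of the neighbouring gene Tmem107. All of these upstream U3 and U8 sites were in both libraries.

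Of the 579 symbols of the SNORA17 family, a box H/ACA RNA with many scattered copies, 27 had a site, which made 29 of the 57 snoRNA sites. Over all snoRNA records 54 of 1442 had a site in at least 1 library. The family makes up 586 of these 1442 records, so it is a large part of the type itself. Only 4 of the 29 were upstream, 13 were inside the gene and 12 downstream. Their median signals of 0.359 and 0.575 were below those of other distal peaks, and 12 of 29 were in both libraries. Box C/D records other than U3 and U8 had a site at 6 and 3 of 379 (1.58% and 0.792%). Over all snoRNA records the shares were 3.54% and 2.36%. None of the 17 Snord116 symbols of the imprinted Prader-Willi region had a site. At these shares of all snoRNA records, none of 17 says little about the region. The 2 sites at Gm-numbered copies of the same family were at Gm22417 (0.115 and 0.282) and Gm25210 (0.344 and 0.372). They were weak and consisted by more than 50% of repeated words.

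Among miRNA genes, 96 records of 2054 had a site in replicate 1, 77 in replicate 2 and 62 in both. The strongest of all members was at Gm23935 (chr16:11144171-11144320), a record annotated as miRNA on the opposite strand to Zc3h7a, with 16.6 and 16.9, and with a weaker neighbour at 2.13 and 2.30. Of its 31-base words 95.8% occur elsewhere in the genome. Next was the site over Mir132 (chr11:75173521-75173820) with 5.29 and 6.77, centred 1 bp before the precursor and within 500 bp of Mir212, in an intron of 1700016P03Rik. miR-132 and miR-212 share the seed AACAGUC and are known to be induced by neuronal activity. The CRE printed above lay 32 bp before the Mir132 precursor, under a footprint in replicate 2 only. Mir9-3, a gene of neural progenitors and neurons, had 4.93 and 5.21 at -373 bp inside its host Mir9-3hg. Its CRE at -364 bp was under a footprint in both libraries. This is common for the motif, since 78.6% and 70.6% of CRE matches in all autosomal peaks lay under one.

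Of the other strong miRNA sites, Mir210, a gene induced by low oxygen, had 4.29 and 4.73 at -418 bp. Mir3086, in an intron of Hspa12a, had 2.29 and 3.12, and Mir7020 had 1.71 and 2.79. A pair of records typed as miRNA overlapped tRNA genes on the same strand. Mir1983 overlapped a tRNA-Ile gene and had 3.46 and 5.47 at -2 bp, and n-TStga1 overlapped a tRNA-Ser gene and had 2.88 and 5.62 over the gene and 2.38 and 3.39 at -441 bp. The B box at n-TStga1 lay 68 bp after the start of the record, under a footprint in both libraries. Of the B box matches in all autosomal peaks, 47.5% and 50.7% lay under one. In replicate 1 the B box was in 1 of the 271 peaks at small RNA genes (0.369%) and the CRE in 4 (1.48%). Of other distal peaks of replicate 1, 0.173% held the B box and 0.384% held the CRE. Of all autosomal peaks of replicate 1, 0.217% and 0.887% did. Both motifs are among 14 that were searched, and counts this small say little about the sites as a set.

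Of the lists of miRNA genes by tissue, only the neuronal list had more than 1 gene with a site. Of 30 neuronal genes, 5 had one in both libraries, which were Mir132, Mir212, Mir9-3, Mir129-2 (1.84 and 2.41) and Mir128-2 (1.04 and 1.24, in an intron of Arpp21). The first and second share 1 site. Another 4 (Mir124a-1, Mir124a-3, Mir137 and Mir181a-1) had peaks only at another start, at 0.458 to 1.05 in replicate 1. In replicate 2 such peaks were at Mir124a-3 (1.20) and Mir137 (0.756), and the other two are listed at 0. The remaining 21 had no peak within 500 bp and are listed at 0. They were Mir124a-2, Mir9-1, Mir9-2, Mir128-1, Mir138-1, Mir138-2, Mir134, Mir153, Mir218-1, Mir218-2, Mir129-1, Mir488, Mir7-1, Mir7-2, Mir125b-1, Mir125b-2, Mir99a, Mir100, Mir181a-2, Mir29a and Mir29b-1. Of the neuronal list 16.7% had a site, with the site of Mir132 and Mir212 counted for both, against 5.40% of all autosomal miRNA records, which is 111 of 2054. Of the records with symbols other than Gm numbers, the kind this list holds, 80 of 1091 had one.

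None of the 12 oligodendrocyte and astrocyte genes had a site. Mir219a-1, a miRNA of oligodendrocyte maturation, had a peak only at another start, with 3.95 and 4.43, and Mir219a-2, Mir338, Mir23b, Mir27b, Mir24-1, Mir23a, Mir27a, Mir24-2, Mir31, Mir204 and Mir211 are listed at 0. Of 11 blood, immune and endothelial symbols 10 were matched on autosomes, and 1 had a site, Mir145a with 1.60 and 2.61, a miRNA of smooth muscle and vessel walls. Mir142, Mir155, Mir146, Mir150, Mir451a, Mir144, Mir126a, Mir21a and Mir143 are listed at 0, and Mir223 was not matched. Of 30 genes of other organs 1 had a site, Mir203 at 0.547 in replicate 1 only. Mir122, Mir1a-1, Mir1a-2, Mir133a-1, Mir133a-2, Mir133b, Mir206, Mir208a, Mir208b, Mir499, Mir375, Mir192, Mir194-1, Mir194-2, Mir215, Mir216a, Mir217, Mir200a, Mir200b, Mir200c, Mir141, Mir429, Mir205, Mir10a, Mir10b, Mir196a-1, Mir196a-2, Mir196b and Mir202 are listed at 0. The shares of the oligodendrocyte and astrocyte, blood and other-organ lists were 0%, 10% and 3.33%, against 5.40% of all autosomal miRNA records. At that share, counts from lists this short say little about the cell types or organs. No peak near a precursor is no measure of the miRNA, since the promoter of a long host transcript can be far from it. The large cluster between Meg3 and Mirg had a site at none of its 66 records, against 5.40% of all autosomal miRNA records.

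The miR-344 cluster on chromosome 7 held the largest group of miRNA genes with a site that share a seed, among those that could be compared. Only 71 of the 105 miRNA symbols with a site were in the RefSeq miRNA set. The seed GUCAGGC was shared by 5 genes (Mir344, Mir344-2, Mir344b, Mir344c and Mir344d-1), while Mir344f and Mir344i have other seeds. The cluster was picked after its sites were seen. Of 13 Mir344 genes between chr7:61683124 and chr7:62085310, 7 had a site, and 6 of their 8 sites were in both libraries. Mir344-2 had 1.03 and 1.05, Mir344f 0.688 and 0.744, Mir344 0.604 and 0.688, Mir344c 0.516 and 0.541, Mir344i 0.297 and 0.485, and Mir344d-1 0.229 and 0.417. Mir344b had 0.316 in replicate 2 only. Apart from a second peak at Mir344f at -243 bp in replicate 1 only, the centres lay between -65 and 78 bp from the precursor's start, on or beside the hairpin. The median over the cluster's sites, 0.516 and 0.541, was near or below that of other distal peaks. Mir344g had a peak only at another start (0.979 and 1.31), and Mir344d-2, Mir344d-3, Mir344e, Mir344h-1 and Mir344h-2 are listed at 0. At Mir344d-1 40.5% of the words of the peak were repeated, and at the other sites in both libraries at most 12.8%.

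misc_RNA records cover RNAs of several kinds. Rn7s2, a gene of 7SL, the RNA of the signal recognition particle that brings ribosomes to the endoplasmic reticulum, had 8.29 and 9.89 with the centre at -60 bp, at the 99.1st percentile in both libraries. A CRE in this peak, at -49 bp, was under a footprint in both libraries. The sister gene Rn7s1 had 7.76 and 8.23 but within 1 kb of another start, as did Rn7sk (7SK, which restrains transcription elongation) with 5.38 and 6.76. Vaultrc5, the RNA of the vault particle, had 3.83 and 3.97 at -35 bp. Rny1, a Y RNA gene, had 2.19 and 2.64 at -351 bp, and its neighbour Rny3 had 0.553 in replicate 2 only. Terc, the template RNA of telomerase, had 1.60 and 1.59 at -2 bp. The other strongest sites were at Nkx2-2os (2.28 and 2.10, at 750 bp, past the end of the record) and at Gm27718 (2.05 and 1.85, in an intron of Pvt1).

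rRNA and scaRNA sites were few. The rRNA records carry n-R5s symbols, for 5S rRNA, or Gm-number symbols. Those in both libraries were at n-R5s213 (0.797 and 1.06), n-R5s171 (0.672 and 1.13), Gm24931 (0.927 and 0.835), Gm23764 (0.771 and 0.947) and Gm23757 (0.344 and 0.564). The peak at Gm24931 held a CRE 300 bp after the gene start, under a footprint in neither library. Sites of replicate 1 only at n-R5s122 (0.229) and n-R5s108 (0.0938) on chromosome 8 had 93.1% and 100% of repeated words. The only scaRNA site in both libraries was at Gm26489, with 0.234 and 0.350.

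The 2 libraries placed shared sites in nearly the same order. Over the 165 sites in both, Spearman's rho was 0.957, a description across sites of 2 libraries that share an annotation. After centring on the median log2 difference of 59515 autosomal 1-to-1 pairs of peaks (-0.25, replicate 1 minus replicate 2), the SD of the difference was 0.33 over small RNA sites and 0.32 over all pairs. By type it was 0.27 for snRNA, 0.34 for miRNA and snoRNA and 0.40 for misc_RNA. Shared sites differed by up to -1.04 and 1.14 on that scale. The U6 site at Gm25064 differed by -0.10 and the U1 site at Gm22513 by -0.55. Sites in 1 library only were mostly low. The strongest of replicate 1 were at Mir3083 (1.40) and Gm22068, and those of replicate 2 at Mir1905 (1.44, with 4 footprints of replicate 1 in the same stretch) and Gm26338 (1.02, in an intron of Tspan9).

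**Figure D4:**
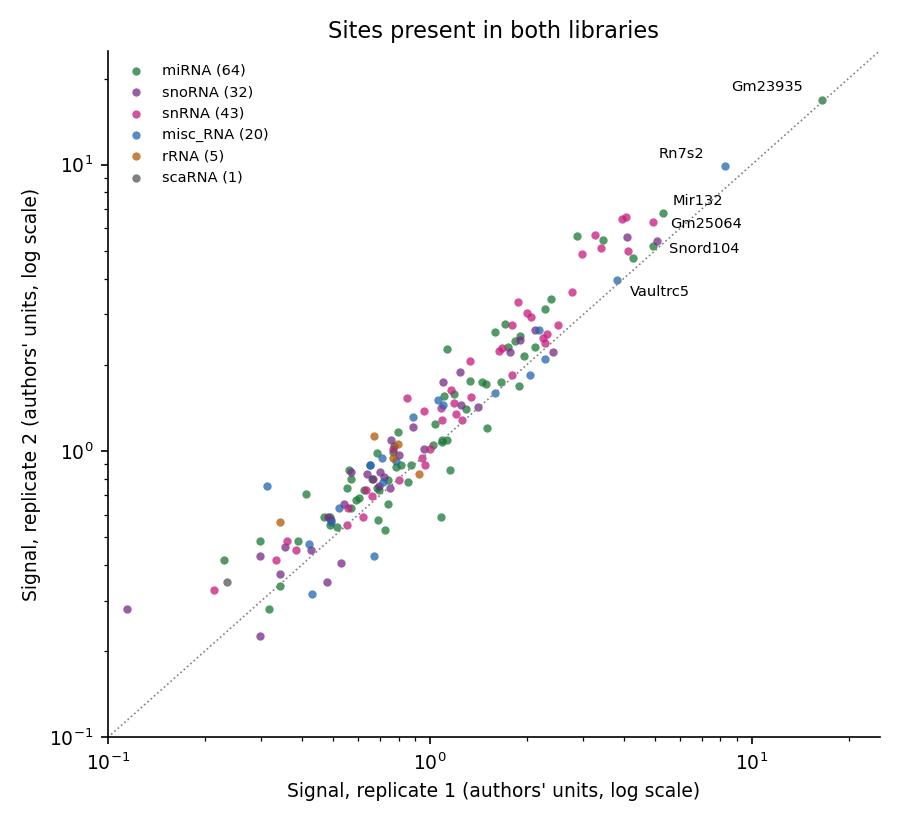
Signal in replicate 1 (x axis) and replicate 2 (y axis) of the 165 sites with a peak in both libraries (1 point each, coloured by type with the number of sites in brackets, both axes in authors' units on a log scale), with a dotted line of equal values. Points lie close to 1 line from about 0.2 to 16.6, mostly above the dotted line, where the median difference over all autosomal pairs is -0.25.

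Sites at small RNA genes held more sequence that occurs elsewhere in the genome than other distal peaks. Over 50% of the 31-base words were repeated in 24 of 270 peaks (8.89%) of replicate 1 and 20 of 203 (9.85%) of replicate 2. Among snRNA peaks the shares were 16.1% and 21.3%, and among other distal peaks of chromosome 19, 0.715% and 0.579%. Without these peaks the snRNA median was unchanged at 0.969 and 1.48.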

How the data were processed

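DNase-seq was measured in 2 libraries of mouse frontal cortex. Per the labels, the authors' files are on mm10; no source used here names the aligner, peak caller or thresholds. The authors deposited 2 peak lists per library; the signal in column 7 of the longer list was used as deposited, and its normalization is not stated. Of the deposited footprint lists only positions were used, and the cut-rate tables were not analysed here. Coordinates were joined to GENCODE M21 and RefSeq GRCm38 sequence. An overlap of 1 bp counted as shared. Repeated words are 31-base words that occur over 1 time in the genome on either strand. Motifs were exact matches on both strands. Named sites were the 5 strongest per type present in both libraries (miRNA: 10), the 2 strongest of each library alone, and every gene of 4 miRNA lists; further genes named for a family were chosen after their values were seen. Members and lists were chosen with earlier results of these data known. Some genes and 1 sequence are not reported here. With 1 group of 2 libraries no test was made, and depth is unknown. Interval code was tested on simulated data. Alternatives changed the list, signal minimum, distances, repeats, overlap and replicate. Python 3.11.15, pandas 2.3.3, numpy 2.4.6, numba 0.67.0 and pysam 0.24.0 were used.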

Additional observations from a re-analysis of the deposited data

How the results depend on the processing

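Values here are means of both libraries. The number of sites was 237, and 143 with the shorter peak list, 124 with peaks at or above the library's median signal, 122 with a window of 200 bp and 392 with one of 1000 bp. The median signal was 0.766, and 1.27 with the shorter list, 1.40 above the median signal and 0.978 for shared peaks only. The share overlapping the other library was 73.1%, and 93.4% above the median signal. The share with a footprint was 79.6%, and 89.6% with the shorter list and 95.3% above the median signal. The log2 ratio of the median to that of other distal peaks was 0.30 over all types, and 0.22 above the median signal, 0.19 at 200 bp, 0.23 at 1000 bp, 0.37 with an exclusion of 500 bp and 0.34 without soft-masked peaks. For snRNA it was 0.97, and 0.76 with the shorter list, 0.58 above the median signal, 0.51 at 200 bp, 0.61 at 1000 bp, 0.82 with an exclusion of 2 kb and 0.83 for shared peaks, so it stayed above 0 in each of these. Leaving out peaks with over 50% of repeated words, an alternative chosen after seeing the data, left it at 0.97. The ratio turned below 0 for snoRNA at 200 bp (-0.057), at 1000 bp (-0.25), for shared peaks (-0.016) and without replicate 2 (-0.045, against 0.15 without replicate 1), and for misc_RNA above the median signal (-0.073). The cause of these changes was not tested. With either library alone, the number of sites was 203 to 271, the median signal 0.641 to 0.891, the shared share 62.0% to 84.2%, the footprint share 75.9% to 83.4%, and the ratio 0.28 to 0.33 over all types and 0.92 to 1.01 for snRNA. No paired analysis was possible because there is only 1 group. The read depth is unknown, and the absence of a peak does not show that a gene is closed.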
